A study of Mus musculus with 6 samples.

Results

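The genes described here encode the kinase, adaptor and phosphatase machinery that carries signals from dectin-1, the beta-glucan receptor encoded by *Clec7a*, to NF-kappaB and NFAT. They were taken by symbol from the table of gene counts: *Syk*, *Card9*, *Bcl10*, *Malt1*, *Plcg2*, *Prkcd*, *Vav1*, *Ptpn6* and *Nfatc1*, which is 9 of 26100 rows, and all 9 were found and passed the filter on low counts. The lungs came from 3 *Clec7a* knockout (KO) mice and 3 wild-type (WT) mice. Both groups had received bleomycin, a DNA-damaging drug that scars the lung, through the trachea, and were sampled on day 14. How the knockout was made, and the strain and age of the mice, are not stated in the labels, and lungs without bleomycin were not analysed here. RNA of whole lung was sequenced, so a level is one of the tissue, and fewer cells of a type cannot be told apart from less RNA per cell.

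When dectin-1 binds its ligand, Src family kinases phosphorylate its cytoplasmic tail and the kinase SYK docks there. SYK, with VAV1 and phospholipase C gamma 2 (PLCG2), raises calcium and diacylglycerol; calcium acts through calcineurin on NFATC1, while protein kinase C delta (PRKCD) phosphorylates CARD9. CARD9 then assembles with BCL10 and MALT1 into the complex that activates NF-kappaB, and the phosphatase SHP-1, encoded by *Ptpn6*, dampens the cascade. In the lung these proteins are known mainly from macrophages, dendritic cells, neutrophils and B cells, although *Bcl10*, *Malt1* and *Prkcd* are expressed in many cell types.

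The promoters shown here belong to the 5 genes whose levels moved most alike over the 6 libraries, *Syk* with *Plcg2*, and *Vav1* with *Ptpn6* and *Card9* (values below). Each is the 250 bases before a RefSeq start site, on build GRCm38.p6 and on the strand of the gene. Capitals mark GAGGAA, a core that ETS family factors such as PU.1 can bind, and GGGCGG, the GC box, each searched on both strands so that their complements TTCCTC and CCGCCC are capitalised too. Overlapping matches run together. *Syk* has 2 start sites in the table, and the downstream one, which holds a match, is printed. The upstream *Syk* window held neither motif.
Syk: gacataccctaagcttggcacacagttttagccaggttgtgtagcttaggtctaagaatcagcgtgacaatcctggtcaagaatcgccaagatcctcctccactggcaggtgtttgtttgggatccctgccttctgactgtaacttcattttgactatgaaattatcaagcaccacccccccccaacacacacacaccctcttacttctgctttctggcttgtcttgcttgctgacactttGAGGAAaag
Plcg2: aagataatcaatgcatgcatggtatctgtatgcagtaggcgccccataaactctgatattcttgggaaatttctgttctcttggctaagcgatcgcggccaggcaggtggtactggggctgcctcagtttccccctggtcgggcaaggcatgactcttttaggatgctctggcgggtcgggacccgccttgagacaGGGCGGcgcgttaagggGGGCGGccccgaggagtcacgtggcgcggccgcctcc
Vav1: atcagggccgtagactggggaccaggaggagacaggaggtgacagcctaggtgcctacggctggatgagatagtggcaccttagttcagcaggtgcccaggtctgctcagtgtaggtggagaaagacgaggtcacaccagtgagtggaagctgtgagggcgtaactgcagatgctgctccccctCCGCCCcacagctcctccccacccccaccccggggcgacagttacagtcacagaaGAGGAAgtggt
Ptpn6: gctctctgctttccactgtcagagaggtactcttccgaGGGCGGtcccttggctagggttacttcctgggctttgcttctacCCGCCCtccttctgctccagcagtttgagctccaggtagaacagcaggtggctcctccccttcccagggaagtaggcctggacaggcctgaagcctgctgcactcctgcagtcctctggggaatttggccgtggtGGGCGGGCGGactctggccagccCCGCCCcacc
Card9: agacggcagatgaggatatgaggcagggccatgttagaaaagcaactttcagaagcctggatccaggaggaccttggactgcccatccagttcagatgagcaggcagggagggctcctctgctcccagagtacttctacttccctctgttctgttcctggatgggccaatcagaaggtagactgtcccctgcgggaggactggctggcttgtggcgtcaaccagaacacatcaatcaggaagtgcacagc
These windows lie at chr13:52596632-52596881 (*Syk*, plus strand), chr8:117498025-117498274 (*Plcg2*, plus), chr17:57278850-57279099 (*Vav1*, plus), chr6:124738710-124738959 (*Ptpn6*, minus) and chr2:26360910-26361159 (*Card9*, minus). GAGGAA stood 9 bases before the downstream *Syk* start and 11 bases before the *Vav1* start, counted to its first base, both on the strand of the gene. It was found in 2 of the 9 windows of 7 of the genes, and in 23.3% of all 32851 promoter windows of this length. The GC box was found in 5 of the 9 windows, against 32.7% of all windows, with 5 matches in *Ptpn6*, 2 in *Plcg2* and 1 in *Vav1*. The *Card9* window and both *Syk* windows held no GC box. A match describes these letters and is not evidence of binding.

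The libraries held 31052936 to 34451956 counts. The targeted gene went with the labels: *Clec7a* had 114, 230 and 92 counts in KO lungs, against 1974, 2732 and 6734 counts in WT lungs (log2 fold change -4.68 ± 0.61, edgeR adjusted p 0.203, DESeq2 adjusted p 1.52e-14). Both libraries numbered 1 differed most from the rest, with Spearman correlations across tested genes of 0.947 or lower for pairs that include one and 0.959 or higher for the other pairs. KO replicate 1 also had the highest share of mitochondrial counts, at 7.34%, against 2.69% to 3.87% in the other libraries. The pan-leukocyte gene *Ptprc* was lowest in WT replicate 1, at 60.0 CPM (counts scaled to library size with TMM factors). The libraries read as lung, since the summed alveolar epithelial markers (*Sftpc*, *Sftpb*, *Ager*, *Hopx*, *Nkx2-1*) were at 2874 to 17784 CPM in KO and 1677 to 10008 CPM in WT lungs.

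No difference between the genotypes in any of the 9 genes passed the test against the spread between mice. In edgeR's quasi-likelihood test, 0 of 9 were called at a Benjamini-Hochberg adjusted p under 0.05, and 0.0% of all 16633 genes tested were called by the same rule. Adjusted p-values of the 9 genes were 0.565 or higher, and 0 of 9 had an unadjusted p under 0.05, which 11.8% of all genes tested had. DESeq2 called 3.0% of the 22578 genes it tested (1.58% higher and 1.43% lower) and 0 of the 9, with adjusted p of 0.665 or higher. Those 22578 include low-count genes that the edgeR filter dropped, so that share is not a like measure for the 9. The counts were likewise 0 of 9 in limma-voom, where 0.0% of all genes were called, and in limma-voom with sample weights, where 13.4% were. Estimates were higher in KO for 6 genes and lower for 3, with log2 fold changes (KO minus WT, as throughout) from -0.27 to 0.39 and a median of 0.10, beside a median of -0.01 and 49.0% of genes higher over all genes tested. The 95% intervals reached from -0.76 to 1.15 over the 9 genes. Over the 9 genes, these bounds leave room for KO levels between 0.589 and 2.23 times the WT levels, so equality was not shown. Each value rested on 483 to 6175 counts per library.

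**Figure D1:**
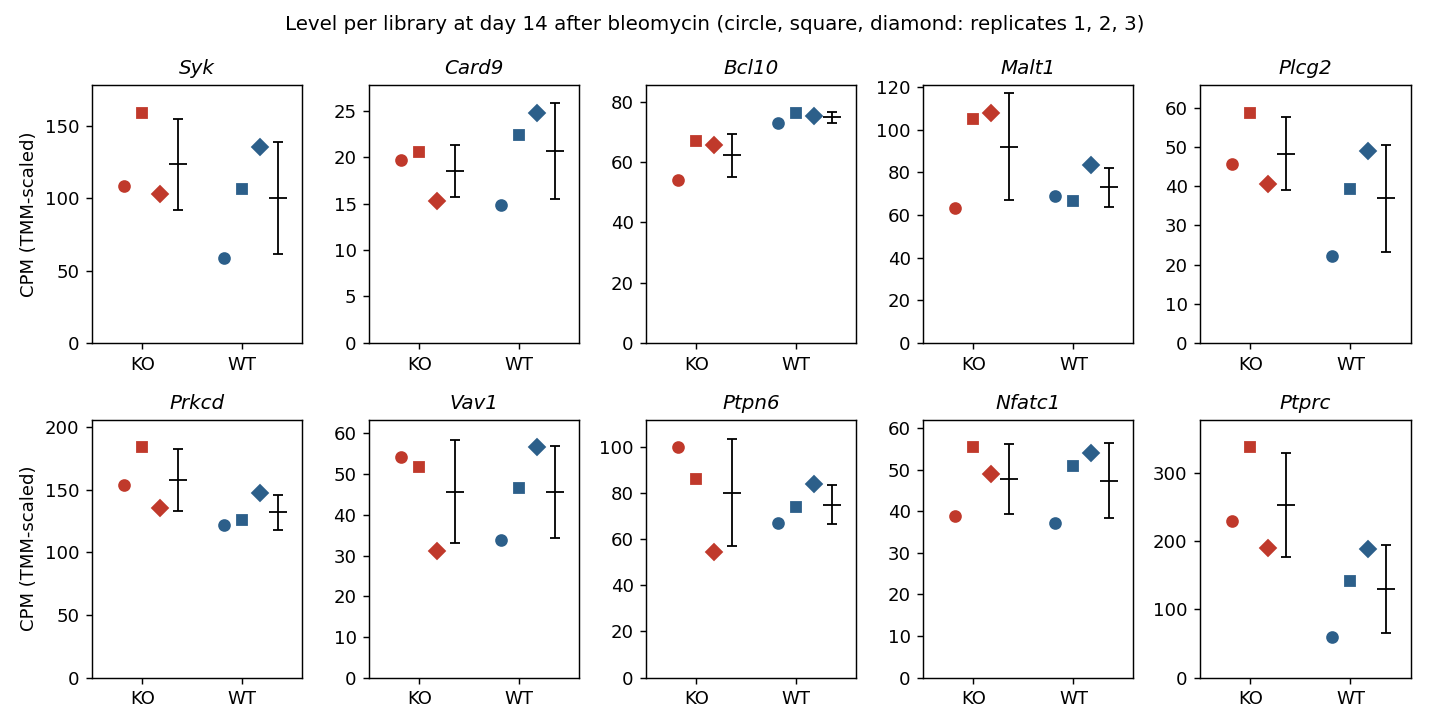
Level of each of the 9 genes and of *Ptprc* in CPM (vertical axis, starting at 0), with KO libraries in red on the left and WT libraries in blue on the right of each panel; circles, squares and diamonds are replicates 1, 2 and 3, and the black bars are the mean and SD. The groups overlap for 8 of the 9 genes, and *Bcl10* has all KO points below the WT points.

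At the head of the cascade, the receptor-proximal kinase gene *Syk* was at 108, 159 and 103 CPM in KO lungs, against 58.7, 106 and 136 CPM in WT lungs. WT replicate 1 was the low library and KO replicate 2 the high one, and the groups overlapped. Means were 124 ± 31.2 CPM in KO and 100.2 ± 38.8 CPM in WT (SD, n = 3 each), a log2 fold change of 0.30 ± 0.35 (SE) with an edgeR adjusted p of 0.785. The *Syk* estimate was 0.03 when WT replicate 1 was left out and 0.58 when WT replicate 3 was. *Plcg2*, whose product cleaves membrane phosphoinositide into the calcium-releasing and protein kinase C-activating messengers, was at 45.7, 58.8 and 40.6 CPM in KO lungs, against 22.3, 39.4 and 49.0 CPM in WT lungs. Again WT replicate 1 was lowest and KO replicate 2 highest. Its log2 fold change of 0.39 ± 0.32 was the highest of the 9 genes (adjusted p 0.679, edgeR), and leaving out WT replicate 1 or WT replicate 3 gave 0.13 or 0.65.

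*Vav1*, the haematopoietic exchange factor for Rac GTPases, was at 54.1, 51.7 and 31.1 CPM in KO lungs, against 33.9, 46.5 and 56.6 CPM in WT lungs. Both means were 45.7 CPM, with SDs of 12.7 in KO and 11.3 in WT. The values within each genotype spanned 1.74-fold in KO and 1.67-fold in WT, and the log2 fold change was 0.00 with a 95% interval from -0.70 to 0.70 (adjusted p 1.00, edgeR). Its sign turned under 11 of 19 alternatives, with values from -0.31 to 0.22. *Prkcd*, the kinase that activates CARD9, was at 154, 184 and 135 CPM in KO lungs, against 122, 126 and 147 CPM in WT lungs. KO replicate 3 lay below WT replicate 3, so the groups overlapped, and the log2 fold change was 0.26 ± 0.19 (adjusted p 0.646, edgeR).

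The adaptor complex itself showed estimates on both sides of 0. *Card9*, the myeloid scaffold, was at 19.7, 20.5 and 15.3 CPM in KO lungs, against 14.8, 22.4 and 24.8 CPM in WT lungs. The lowest of the 6 values was WT replicate 1, and the next lowest was KO replicate 3. *Card9* had a log2 fold change of -0.16 ± 0.25 (adjusted p 0.853, edgeR), which lay between -0.35 when WT replicate 1 was left out and -0.01 when WT replicate 3 was. *Bcl10*, which links CARD proteins to MALT1, was at 54.0, 67.0 and 65.8 CPM in KO lungs, against 72.8, 76.4 and 75.2 CPM in WT lungs. It was the only gene of the 9 whose groups did not overlap in CPM. Of all genes tested, 21.1% had groups that did not overlap, 9.81% higher and 11.3% lower. The difference was small, at a log2 fold change of -0.27 ± 0.16 and a 95% interval from -0.65 to 0.12 (adjusted p 0.565, edgeR). In FPKM (fragments scaled to gene length and mapped fragments) the *Bcl10* groups overlapped, with 26.6, 34.3 and 33.3 in KO and 33.5, 37.6 and 37.3 in WT lungs. *Malt1*, the paracaspase of the complex, was at 63.1, 105 and 108 CPM in KO lungs, against 68.7, 66.4 and 83.5 CPM in WT lungs. KO replicates 2 and 3 lay above all WT values and KO replicate 1 lay below them all. Its log2 fold change of 0.34 ± 0.25 (adjusted p 0.645, edgeR) was 0.55 without KO replicate 1, with an adjusted p of 0.355, and 0.52 without both first replicates, with an adjusted p of 0.0858.

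The inhibitory phosphatase gene *Ptpn6* was at 99.7, 86.1 and 54.5 CPM in KO lungs, against 67.1, 73.9 and 83.8 CPM in WT lungs. The KO values held both the highest and the lowest library, and the 3 WT values lay between KO replicates 2 and 3. Its log2 fold change was 0.10 ± 0.25 (adjusted p 0.919, edgeR), and it turned to -0.09 without KO replicate 1. *Nfatc1*, the calcineurin-dependent transcription factor at the end of the calcium branch, was at 38.8, 55.4 and 49.0 CPM in KO lungs, against 37.1, 50.9 and 54.0 CPM in WT lungs. The first replicate was the lowest of its genotype in both groups, and the log2 fold change was 0.01 ± 0.22 (adjusted p 0.989, edgeR). Leaving out KO replicate 2, KO replicate 3 or WT replicate 1 turned the *Nfatc1* estimate to -0.11, -0.01 and -0.14.

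**Figure D2:**
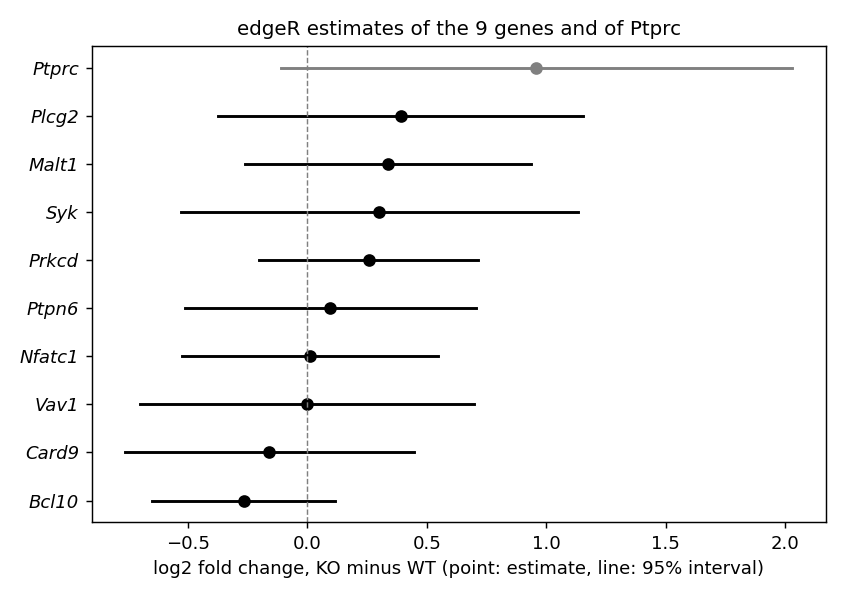
Log2 fold change, KO minus WT, of the 9 genes in order of size with *Ptprc* above them (points, edgeR estimates; lines, 95% intervals). Every interval crosses 0, and the estimates of the 9 genes run from -0.27 to 0.39.

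On GRCm38 (GENCODE M21) the 9 genes are annotated as protein coding and lie on 8 chromosomes: *Syk* on chromosome 13 (52583173 to 52648792, plus strand), *Card9* on chromosome 2 (26352176 to 26360918, minus), *Bcl10* on chromosome 3 (145922804 to 145934356, plus), *Plcg2* on chromosome 8 (117498291 to 117635142, plus), *Prkcd* on chromosome 14 (30595354 to 30626210, minus), *Vav1* on chromosome 17 (57279100 to 57328031, plus) and *Ptpn6* on chromosome 6 (124720707 to 124738714, minus). *Malt1* (65430938 to 65479067, plus) and *Nfatc1* (80606205 to 80713071, minus) share chromosome 18. For 4 genes (*Card9*, *Plcg2*, *Ptpn6* and *Nfatc1*) the annotation holds a transcript on the opposite strand that overlaps the gene, by 8274 bases in *Card9* and 5873 bases in *Ptpn6*. None of those transcripts has a row of its own in the table, and the sources used here do not say whether strand was used in counting, so reads from them could be part of these counts.

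The profiles of the 9 genes over the libraries were not all alike. On log2 CPM centred on each gene's mean over the 6 libraries, *Syk* and *Plcg2* differed least of all 36 pairs, with a root mean square difference of 0.07 log2 units. They shared the deepest trough of the set, -0.87 and -0.88 in WT replicate 1, and the peak in KO replicate 2, at 0.58 and 0.52. *Vav1* and *Ptpn6* came next, at 0.14, followed by *Card9* and *Vav1*, at 0.15. All 3 of these were low in KO replicate 3, at -0.52 for *Vav1*, -0.48 for *Ptpn6* and -0.33 for *Card9*. *Malt1* was high in KO replicates 2 and 3, at 0.38 and 0.42, where *Vav1* was at 0.22 and -0.52, and the pair differed by 0.51. *Bcl10* and *Plcg2* were the least alike, also at 0.51. For scale, the median difference of 13679 other genes was 0.56 from *Syk* and 0.44 from *Card9*. These likenesses rest on 6 libraries and describe those mice.

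**Figure D3:**
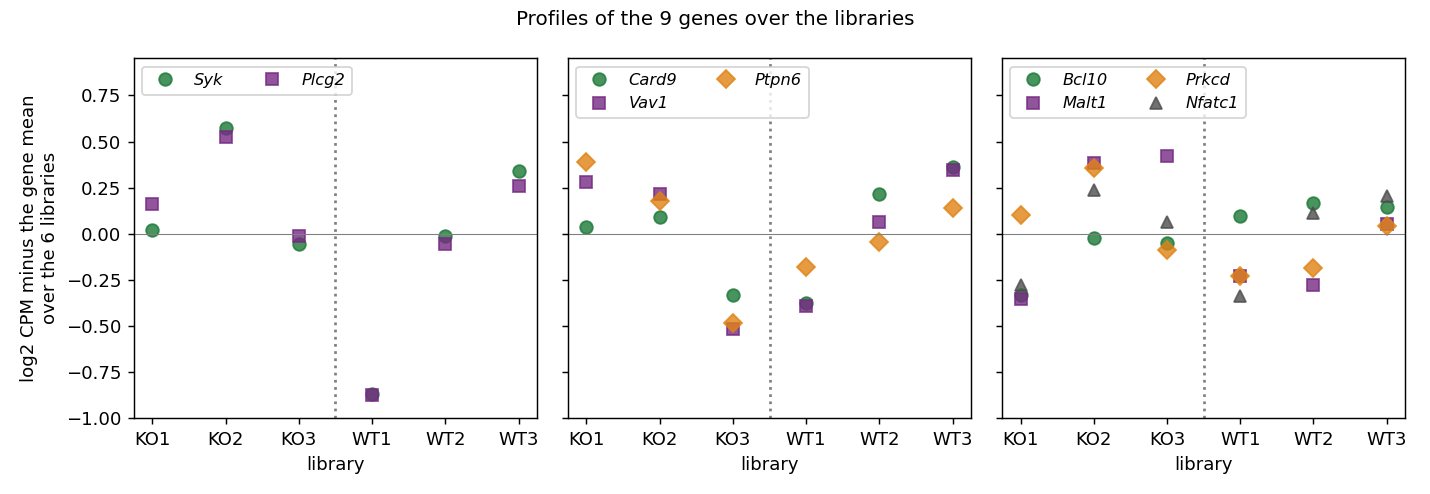
Log2 CPM of each gene minus its mean over the 6 libraries (vertical axis), by library (horizontal axis, KO left of WT). *Syk* and *Plcg2* nearly coincide in the left panel, *Card9*, *Vav1* and *Ptpn6* are all low in KO replicate 3 and WT replicate 1 in the middle panel, and the other 4 genes are on the right.

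In WT lungs, 8 of the 9 genes were lowest in replicate 1, and 8 were highest in replicate 3. Of all genes tested, 45.6% were lowest in WT replicate 1 among the WT libraries, and 34.4% were highest in WT replicate 3. Leukocyte markers moved with this order: the summed level of *Ptprc*, *Cd53*, *Laptm5* and *Coro1a* was 1121, 1172 and 724 CPM in KO replicates 1, 2 and 3, and 544, 771 and 983 CPM in WT replicates 1, 2 and 3, with none of the 4 at 0. Markers of other cell types differed between the WT libraries too. Fibroblast markers summed to 1564, 6234 and 7271 CPM in WT replicates 1, 2 and 3, and endothelial markers to 511, 1578 and 1506 CPM. Alveolar epithelial markers ran the other way, at 10008, 2638 and 1677 CPM, as did airway markers, at 10735, 878 and 268 CPM. The part of leukocyte content, or of the content of any other cell type, in the levels of the 9 genes was not tested. Among 13679 other genes of at least 1 CPM, the 3 nearest to *Syk* in profile were *Fcrl1*, a receptor gene of B cells, *Ikzf1*, a transcription factor gene of blood cells, and the nucleoside transporter gene *Slc29a3*, at 0.05, 0.07 and 0.08 log2 units, against a median of 0.56. *Ikzf1* was at 43.0, 65.5 and 45.2 CPM in KO lungs and at 24.8, 49.3 and 59.3 CPM in WT lungs. The 3 nearest to *Card9* were *Tpgs2*, the cell cycle inhibitor gene *Cdkn2c* and the replication gene *Mcm5*, each at 0.06, against a median of 0.44.

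Set against *Ptprc* within each library, all 9 genes had lower mean ratios in KO. *Ptprc* itself averaged 253 ± 76.4 CPM in KO and 129.9 ± 65.0 CPM in WT (log2 fold change 0.96 ± 0.45, adjusted p 0.464, edgeR). Markers of some leukocytes moved with it: the 6 dendritic cell markers summed to 219.9 to 362 CPM in KO and 37.7 to 140 CPM in WT lungs, and the 5 B cell markers to 52.1 to 70.8 CPM in KO and at most 39.1 CPM in WT lungs, all 11 with higher estimates and none at 0. Neutrophil markers went the other way, with all 5 tested lower and sums of 80.9 to 152 CPM in KO and 164 to 204 CPM in WT lungs. The part of these cell types in the *Ptprc* levels and in the ratios was not tested. Per 100 CPM of *Ptprc*, *Syk* stood at 47.2, 47.3 and 54.3 CPM in KO lungs, against 97.8, 75.3 and 72.1 CPM in WT lungs. *Card9* stood at 8.77, 6.22 and 8.30 in KO and at 25.4, 16.1 and 13.4 in WT lungs on the same scale. The groups did not overlap for 8 of the 9 genes, all but *Malt1*, and the exact 2-sided permutation p was then 0.1, the smallest that 3 against 3 libraries can give. Lower ratios were common in these data: 41.6% of all genes tested lay lower without overlap relative to *Ptprc*, and the median gene differed by -1.07 log2 units. Whether the count of 8 of 9 departs from that share was not tested. *Card9* (-1.20), *Bcl10* (-1.34) and *Vav1* (-1.08) lay below that median and the other 6 genes above it. Against the 4 leukocyte markers summed, a scale chosen after the data were seen, *Card9* and *Vav1* were lower in KO without overlap, by differences of -0.54 and -0.41, beside a median of -0.41 over all genes and 12.4% of genes lower without overlap. On that scale *Syk* (-0.05) and *Plcg2* (0.04) overlapped between the genotypes. Against 7 macrophage markers summed, also chosen after the data were seen, *Card9* (-0.98), *Vav1* (-0.86) and *Ptpn6* (-0.79) were lower without overlap, beside 21.4% of all genes and a median of -0.85. Those markers summed to 4622 to 19754 CPM in KO and 4290 to 5439 CPM in WT lungs, most of it *Lyz2*, at 4023 to 18786 CPM in KO and 3476 to 4280 CPM in WT lungs. The other 6 macrophage markers had lower estimates in KO, among them *Mrc1* (-0.49) and *Cd14* (-0.60). Without KO replicate 3, only 3 of the 7 had lower estimates.

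Per length, *Prkcd* was the most abundant of the 9 transcripts and *Plcg2* the least. *Prkcd* averaged 57.0 ± 9.53 FPKM in KO and 45.3 ± 6.48 FPKM in WT lungs (SD, n = 3 each), above *Bcl10* in all 6 libraries. *Bcl10* (33.8 FPKM over the 6 libraries) and *Ptpn6* (33.6) could not be ordered, with *Bcl10* higher in 4 of 6. *Syk* (20.7) was below *Ptpn6* in 6 of 6 and above *Malt1* (15.8) in 4 of 6, and *Malt1* and *Vav1* (15.0) were level at 3 of 6. *Card9* (9.98), *Nfatc1* (9.96) and *Plcg2* (9.60) formed the low end with overlapping ranges. All 9 lay above the median of the tested genes, from the 59.4th percentile for *Plcg2* to the 92.0th for *Prkcd*.

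Among close relatives, the myeloid form was not always the main one in these lungs. *Syk* was at 23.4 ± 6.20 FPKM in KO and 18.1 ± 7.70 FPKM in WT, and its T cell counterpart *Zap70* at 2.59 ± 0.70 FPKM in KO and 1.40 ± 0.16 FPKM in WT. *Plcg2* was outweighed by the ubiquitous *Plcg1*, which was at 25.6 ± 6.54 FPKM in KO and 22.6 ± 7.14 FPKM in WT. *Prkcd* made up 51.7% of the summed FPKM of the 6 protein kinase C genes examined, ahead of the epithelial and endothelial *Prkch* at 28.7%. *Vav1* held 48.4% of its family, *Vav2* 36.2% and *Vav3* 15.5%. *Ptpn6* held 44.7% of its sum with the broadly expressed *Ptpn11*. *Nfatc1* held 20.3% of the 5 NFAT genes, behind *Nfat5* (31.5%) and *Nfatc3* (29.4%). These shares are of means over the 6 libraries, and some orders turned in single libraries. *Nfatc1* was at 1.03 times *Nfat5* in WT replicate 1, and *Vav1* at 0.847 times *Vav2* in a KO library. *Ptpn6* was at 1.02 and 1.10 times *Ptpn11* in KO libraries.

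**Figure D4:**
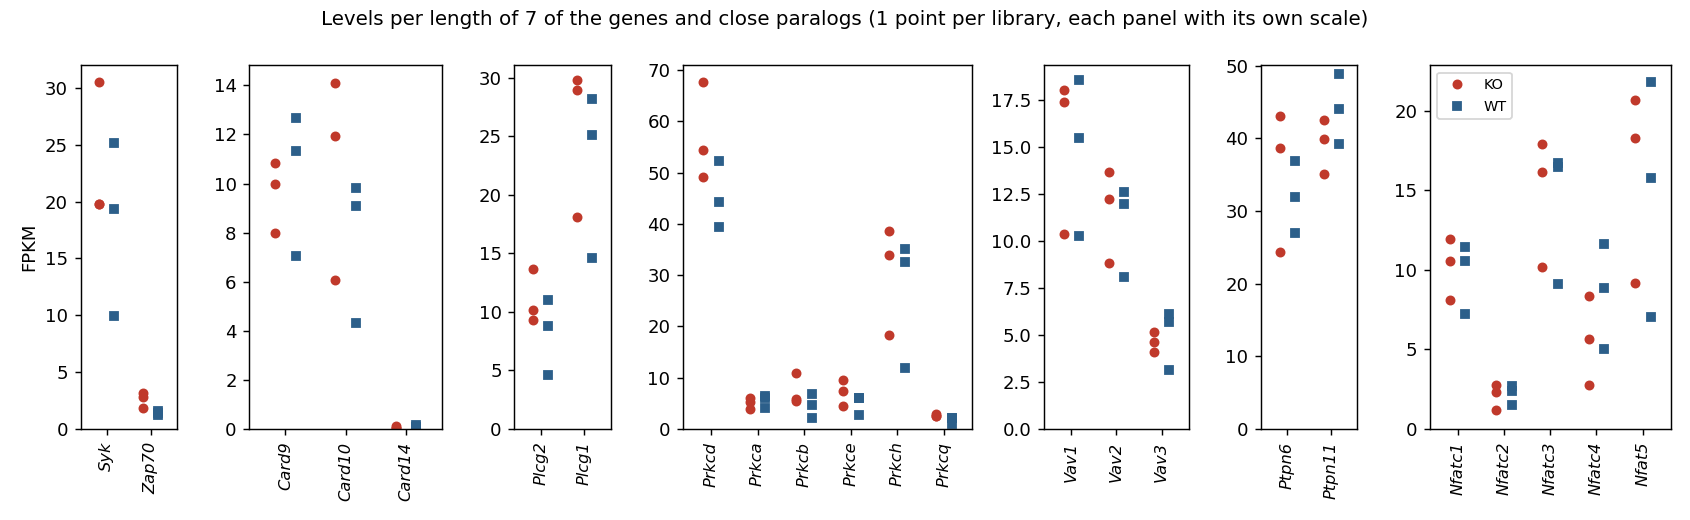
FPKM (vertical axis, a separate scale in each panel) of 7 of the genes and close paralogs, 1 point per library, with KO as red circles left of WT as blue squares. The KO points of *Zap70* and *Prkcq*, both at low levels, lie above their WT points, while the points of the 7 genes overlap between the genotypes.

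The wider pathway was read from 10 lists with 143 genes other than the 9, of which 142 were tested. edgeR called 0 of them (adjusted p of 0.234 or higher), and 11 had an unadjusted p under 0.05, or 7.75% against 11.8% of all genes. DESeq2 called 5 higher and 1 lower, or 4.23% of the 142, and 3.0% of the 22578 genes it tested (1.58% higher and 1.43% lower). These DESeq2 shares cannot be set side by side, since the 22578 genes include low-count genes that the filter dropped and the 142 do not. Estimates were higher in KO for 90 and lower for 52, with a median of 0.12. Leaving out WT replicate 1 turned this to 64 higher and 78 lower with a median of -0.05, and leaving out KO replicate 2 gave a median of -0.03. These and the list values without 1 library that follow were computed after the data were seen. Among the Src and TEC kinases, the antigen receptor kinases of T cells *Lck* (1.43) and *Zap70* (0.82) had an unadjusted p under 0.05 without a call by either tool. *Lyn* (0.02), the abundant Src kinase of myeloid cells and B cells, was near 0, and the Src inhibitor kinase *Csk* (0.24) lay at the median of the list. Of those 13 kinase genes, 11 had higher estimates, with a median of 0.24. Without WT replicate 1 this was 7 of 13 and 0.0048, and the median was 0.08 without KO replicate 1 and 0.10 without KO replicate 2. In the list of 19 adaptor and GTPase genes, 14 estimates were above 0 (median 0.06), against 7 without WT replicate 1 (median -0.03) and 9 without KO replicate 2 (median -0.09). DESeq2 called the T cell adaptors *Grap2* (1.59, adjusted p 0.0179) and *Lat* (1.31, adjusted p 0.0496) there, and the B cell adaptor *Blnk* (0.70) and the abundant GTPases *Cdc42* (0.04) and *Rac1* (-0.06) were called by neither tool. T cell markers moved with these genes: all 5 (*Cd3e*, *Cd3d*, *Cd3g*, *Cd4*, *Cd8a*) had higher estimates, with summed levels of 25.4 to 38.7 CPM in KO and 7.52 to 14.8 CPM in WT lungs, none of them at 0. The 5 NK cell markers (*Ncr1*, *Klrb1c*, *Nkg7*, *Gzma*, *Prf1*) moved likewise, with a median log2 fold change of 1.97 against 1.501 for the T cell markers, and summed to 17.5 to 33.3 CPM in KO and 3.35 to 6.92 CPM in WT lungs, with *Ncr1* at 0 in WT replicate 1. NK cells also express *Lck*, *Zap70* and *Lat*. The part of either cell type in the values of *Lck*, *Zap70*, *Grap2* and *Lat* was not tested.

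Receptors that share the SYK pathway had lower estimates in 10 of 15, with a median of -0.38. The median was -0.14 without KO replicate 3, with 8 of 15 lower, and -0.73 without KO replicate 1. The integrin gene *Itgam*, the alpha chain of complement receptor 3, was at 64.7, 98.2 and 77.5 CPM in KO lungs, against 140, 322 and 323 CPM in WT lungs (log2 fold change -1.70 ± 0.37, edgeR adjusted p 0.234, DESeq2 adjusted p 0.00204). *Itgb2*, which encodes the partner chain of *Itgam*, had an estimate of 0.45, the Fc receptor gene *Fcgr3* had -0.81 without a call, and *Clec1b* (2.01, and 0.97 without KO replicate 1) was called higher by DESeq2 (adjusted p 0.0443). Neutrophil markers moved the same way as *Itgam*: all 5 tested had lower estimates, with summed levels over the 6 markers of 80.9 to 152 CPM in KO and 164 to 204 CPM in WT lungs. Of the 7 macrophage markers, 6 also had lower estimates (median -0.31), but without KO replicate 3 this was 3 of 7, with a median of 0.08. Platelet and megakaryocyte markers (*Pf4*, *Ppbp*, *Itga2b*, *Gp9*) went the other way from *Clec1b* in their sum, at 26.5 to 38.5 CPM in KO and 39.0 to 83.4 CPM in WT lungs. Of these 4 markers, 2 had higher and 2 had lower estimates. The part of these cell types in the receptor values was not tested.

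The 16 partners and regulators of CARD9 had 9 estimates above 0 (median 0.04, and -0.08, -0.04 and -0.09 without KO replicate 2, KO replicate 3 and WT replicate 1). Among them were *Rubcn* (0.34), a CARD9 inhibitor, *Map3k7* (-0.38), the kinase TAK1 that the complex engages, and *Tab2* (-0.29). The deubiquitinase gene *Tnfaip3* (0.22 ± 1.00) turned to -0.27 without WT replicate 1. The 21 second-messenger genes had 14 above 0 (median 0.16), against 9 of 21 (median -0.05) without WT replicate 1 and a median of 0.05 without KO replicate 2, among them *Rasgrp1* (1.27), *Pik3ap1* (0.74), the calcium channel gene *Itpr1* (0.46) and the calcineurin subunits *Ppp3r1* (-0.15) and *Ppp3ca* (0.13). Among phosphatases and inhibitory receptors 7 of 16 estimates were above 0 (median -0.07, and 0.03 without KO replicate 1), and *Ptprc*, *Cd300a* (0.80) and *Pilra* (0.82) had the smallest p and *Pecam1* (0.41) and *Sirpa* (0.14) the highest levels.

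At the output end, the genes that the pathway is known to induce showed no call by either tool. The NFAT family and responsive genes had 7 of 10 estimates above 0 (median 0.12). Single libraries turned this: 2 of 10 were above 0 without WT replicate 1 (median -0.18), 3 of 10 without KO replicate 3 (median -0.13) and 5 of 10 without KO replicate 2 (median -0.05). The calcineurin regulator *Rcan1*, itself an NFAT target, was at 142 ± 33.6 CPM in KO and 96.8 ± 12.1 CPM in WT lungs (log2 fold change 0.55 ± 0.23, edgeR adjusted p 0.425), while *Egr2* (0.32), *Egr1* (0.80 ± 1.43), *Nr4a1* (0.09 ± 1.24) and *Nfatc4* (-0.65 ± 0.46) had no call either. NF-kappaB subunits and inhibitors had 10 of 14 above 0 (median 0.12, and 0.01 to 0.30 with 1 library left out). Among them were *Nfkbie* (0.49), *Nfkbib* (-0.36), *Nfkb2* (0.25), *Nfkbia* (0.48 ± 0.71) and *Nfkbiz* (0.69 ± 1.00). The *Nfkbia* estimate was -0.07 without KO replicate 3, and that of *Nfkbiz* was 0.18 without WT replicate 1. Of 13 cytokine genes that dectin-1 is known to drive, 11 had estimates above 0, with a median of 0.63, and leaving out WT replicate 1 or KO replicate 3 gave medians of 0.20 or 0.27. *Csf2* (1.11), *Il1a* (1.03) and *Il12b* (1.92) had the smallest p, and the abundant *Cxcl2* (0.31 ± 1.77) and *Il6* (-0.26 ± 1.00) had wide errors. Both first replicates stood far below the other libraries in several of these output genes. *Cxcl2* was at 1.61, 228 and 124 CPM in KO lungs, against 0.799, 117 and 167 CPM in WT lungs. The early response gene *Egr1* was at 43.2, 1701 and 1615 CPM in KO lungs, against 34.6, 825 and 1073 CPM in WT lungs. The nuclear receptor gene *Nr4a1* showed the same gap, at 36.9, 581 and 632 CPM in KO lungs and 27.4, 547 and 603 CPM in WT lungs. The 5 NADPH oxidase genes were mixed, with *Cybb* (0.80), *Ncf1* (-0.53), *Ncf4* (-0.50) and *Cyba* (-0.09), and had a median of -0.09, which was 0.16 without KO replicate 3 and 0.0007 without WT replicate 1.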

How the data were processed

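Whole-lung RNA of 6 mice was sequenced, 1 library each, so p-values rest on the spread among 3 mice per genotype. The authors deposited a table of whole-number counts for each gene, not normalized. FPKM values came in another deposited table, whose KO columns carry a suffix that no label explains and were used as KO libraries without replicate numbers. Per the submitters' processing notes, HISAT2 2.0.4, StringTie 1.3.4d and GRCm38 were used, with no role stated.

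The test was edgeR 4.0.16 in R 4.3.3 (filterByExpr, TMM scaling, robust legacy quasi-likelihood fit, genotype as the only term, 2-sided), with Benjamini-Hochberg adjustment over 16633 genes. SE was taken as the size of the unshrunk estimate divided by the root of its F value, and 95% intervals use the fit's degrees of freedom. Ratios used CPM + 0.5 and an exact permutation test. Alternatives were DESeq2 1.42.0, limma 3.58.1 (voom with and without sample weights, and log2(FPKM + 1) or log2(FPKM + 0.1) with a minimum of 0.5 FPKM in 3 libraries or none), other scalings and filters, a replicate block and left-out libraries. Log2(FPKM + pseudocount) understates changes of low genes. The fits were tested on simulated counts.

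The genes, lists and rules were chosen with earlier results of these data known. Besides the 9 genes and *Clec7a*, the rule named up to 3 genes of smallest p and the 2 of highest level per pathway list, all listed close paralogs, and the 3 genes nearest in profile to *Syk* and to *Card9*. Some genes that this rule names are not reported here. Marker lists are given as summed levels beside some results, whether they moved with them or not, and some lists are not reported here.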

Additional observations from a re-analysis of the deposited data

How the results depend on the processing

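Under all 19 alternatives 0 of the 9 genes were called, and the smallest adjusted p of any of them was 0.0603, for *Malt1* under limma-voom with sample weights. *Syk*, *Card9*, *Bcl10*, *Malt1*, *Plcg2* and *Prkcd* kept their direction throughout. *Vav1*, with a main estimate of 0.00, turned to 0.0090 (DESeq2), 0.0091 (DESeq2 size factors in edgeR), 0.042 (total counts only), 0.0016 (no low-count filter), 0.0029 (at least 1 CPM in 3 libraries), 0.045, 0.048 and 0.045 in the FPKM fits with pseudocounts of 1 and 0.1 and with 1 unfiltered, and ranged from -0.18 to 0.22 when each library was left out. *Ptpn6* turned to -0.10 with sample weights and to -0.16 without both first replicates, and ranged from -0.091 to 0.31 when each library was left out. *Nfatc1* ranged from -0.14 (without WT replicate 1) to 0.14, with -0.11 without KO replicate 2 and -0.0063 without KO replicate 3, when each library was left out. Relative to leukocytes, *Plcg2* alone turned, to 0.040 against the summed markers.

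The count of genes called over all genes was 0 in the main test, 678 in DESeq2, 2221 in limma-voom with sample weights, 46 without both first replicates, 0 to 3 with each library left out, and 0 in the other alternatives (2084 at an unadjusted p under 0.05 with the newer quasi-likelihood fit). The estimate of *Clec7a* was -4.67 in DESeq2 and -4.57 with sample weights, both called, and -5.14 to -4.03 with each library left out. The cause of these differences was not tested. The replicate numbers were not taken as pairs, because deviations from the group means correlated at 0.35, 0.35 and -0.10 between same-numbered libraries, and KO replicate 2 correlated best with WT replicate 3 (0.47). With the replicate block, 0 genes and 0 of the 9 were called, and 3387 genes had an unadjusted p under 0.05, against 1968 without it.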
